A study of Mus musculus with 18 samples.

Results

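Emx2, Lhx2 and Pax6 encode transcription factors on which the patterning of the cerebral cortex depends, and their RNA was followed here along the rostrocaudal axis of the neocortex of mouse embryos. All features of the array whose platform annotation names 1 of these 3 genes were taken, whatever their values. This gave 4 of the 21766 array features that were not control spots: 1 for Emx2 (CG_Mm_3000793_1), 1 for Lhx2 (CG_Mm_3006658_1) and 2 for Pax6, called feature 1 (CG_Mm_3001006_1) and feature 2 (CG_Mm_EXT_3110714_1). All 4 had a value on each of the 18 arrays and passed the filter on missing values. The tissue was neocortex of the outbred MF1 stock at stage E13.5, divided into a rostral, a middle and a caudal part, with no treatment or mutation named in the labels. There were 3 pools per region (R1 to R3, M1 to M3 and C1 to C3), and the labels give 4 embryos as their source without saying which embryos went into which pool. Pools may therefore share embryos, so p-values speak only for the spread of these 9 pools, part of which can be technical. Each pool was hybridised on 4 arrays in 2 dyes, always against a pool of another region and another number.

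Emx2 is a homeodomain factor that is known to form a gradient across the cortical ventricular zone, high caudally and medially. Pax6, a factor with a paired domain and a homeodomain, is known to form the opposite gradient, high rostrally and laterally, and mice that lack either gene have shifted cortical areas. Lhx2, a LIM-homeodomain factor, is required for cortical identity, and without it the hem, a signalling centre at the medial edge, expands into the cortex. All 3 are expressed mainly in progenitors at this stage. In dissected tissue fewer cells of a type and less RNA per cell cannot be told apart.

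Emx2 lies on chromosome 19 at 59458690-59465357 in the RefSeq annotation of GRCm38.p6. Lhx2 and Pax6 both lie on chromosome 2, at 38339271-38369737 and at 105668896-105698410. In chromosome coordinates, 54 bases separate the span of Emx2os, an antisense RNA gene, from the Emx2 start. Pax6os1, a long non-coding RNA gene, overlaps the first 1435 bases of Pax6. Neither is named on the array, and the strand and exon that the features match were not analysed here. RefSeq promoter tables hold 5 start sites for the 3 genes, 1 for Emx2 and 2 each for Lhx2 and Pax6. The 250 bases before the most upstream listed start of each gene are shown because 2 of the genes lay on the caudal side and 1 on the rostral side in the values given further on. For Lhx2 the listed start lies just inside the gene as annotated, so the window ends at 38339280, past the gene start at 38339271. Capitals mark CCAAT, a common promoter element, searched on both strands.
Emx2, chr19:59458440-59458689, plus strand: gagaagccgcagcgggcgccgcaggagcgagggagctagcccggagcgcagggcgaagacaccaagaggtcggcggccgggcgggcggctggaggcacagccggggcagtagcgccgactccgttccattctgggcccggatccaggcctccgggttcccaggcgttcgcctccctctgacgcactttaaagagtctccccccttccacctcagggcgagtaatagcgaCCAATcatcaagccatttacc
Lhx2, chr2:38339031-38339280, plus strand: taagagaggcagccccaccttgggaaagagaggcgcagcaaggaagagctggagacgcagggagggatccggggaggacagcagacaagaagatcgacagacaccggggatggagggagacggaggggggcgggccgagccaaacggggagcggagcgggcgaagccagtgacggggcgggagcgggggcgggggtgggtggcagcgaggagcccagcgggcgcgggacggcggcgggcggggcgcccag
Pax6, chr2:105668646-105668895, plus strand: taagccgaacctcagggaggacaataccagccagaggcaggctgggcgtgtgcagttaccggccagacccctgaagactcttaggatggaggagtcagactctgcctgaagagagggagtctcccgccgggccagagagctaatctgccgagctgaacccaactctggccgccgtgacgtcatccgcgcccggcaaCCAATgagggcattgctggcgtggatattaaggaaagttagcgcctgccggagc
CCAAT was found 21 bases before the start of Emx2 and 54 bases before the start of Pax6, and in neither Lhx2 window nor the other Pax6 window. It occurs in 33.8% of the 32851 promoter windows of this length. TAATTA, a core that many homeodomain proteins bind, and AGGTCA, a nuclear receptor half-site, were in 0 of the 5 windows on either strand. They occur in 4.84% and 14% of all windows. G and C made up 67.2% of the Emx2 window, 72.8% and 68.4% of the Lhx2 windows and 60.8% and 47.6% of the Pax6 windows, against a median of 52.4% over all windows.

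Every value is a log2 ratio between pools, centred on the median of its array, and gives no level of a gene. For each feature a pool value was estimated from its 4 arrays, with the 9 pool values of a feature summing to 0 and a term for the dye. The ratio was read as Cy5 over Cy3. The labels do not name the numerator, so every direction is likely and not stated. Genes reported in textbooks as rostral or caudal did not settle it by their medians, which were 0.02 over 5 genes reported as rostral and 0.01 over 4 reported as caudal. The first of these rests on which of 2 Etv5 features stands for that gene (-0.06 and 0.31), and is 0.31 with the other. With the Etv5 feature at -0.06, 3 of the 5 rostral genes lay above 0 and 2 below in rostral minus caudal. Of the 4 caudal genes, 2 lay above and 2 below 0. Spry2, of the rostral list, was at 0.46 ± 0.06 (SE, adjusted p = 0.0619 in limma). The called genes of these lists lay as reported: Etv1, a target of FGF signalling, was 0.80 ± 0.07 (SE) higher and Nr2f1, a nuclear receptor of caudal cortex, was 1.02 lower in rostral pools (log2 difference -1.02 ± 0.07). Their adjusted p in limma were 0.0272 and 0.0138. A second Nr2f1 feature was at -1.02 ± 0.17. All 12 calls were lost without centring, with a Gapdh covariate, with each block tried and without R1, M2, M3, C1, C2 or C3, settings in which 0 features passed. Contrasts that follow are from limma, with p adjusted by Benjamini and Hochberg over 18525 features. At an adjusted p under 0.05, 12 features (0.0648%) differed between rostral and caudal pools, 0 (0%) between rostral and middle and 0 (0%) between middle and caudal. At an unadjusted p under 0.05 these shares were 7.9%, 5.25% and 4.86%. In permutation tests, which ask about 1 value at a time, the region labels of the 9 pools were rearranged in all 1680 ways (exact, two-sided, smallest possible p = 0.00119). Where a pool was left out, its 4 arrays went too and fewer arrangements remained. A permutation p without a pool can therefore rise through the smaller sample alone.

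Emx2 was lowest in rostral pools, 1.19-fold lower than in caudal pools. Its pool values were -0.25, -0.15 and -0.08 in R1, R2 and R3. They were 0.02, 0.05 and 0.14 in the middle pools and 0.03, 0.01 and 0.24 in the caudal pools. All 3 rostral pools lay below all 6 others, while middle and caudal pools overlapped. The mean was -0.16 ± 0.09 over rostral, 0.07 ± 0.06 over middle and 0.09 ± 0.12 over caudal pools (SD, n = 3 each). Rostral minus caudal was -0.25 ± 0.08 (SE), with an unadjusted p of 0.0158 and an adjusted p of 0.427 in limma, so the difference did not pass. The exact permutation test of the same difference gave p = 0.0202. It gave 0.0554 without R1, 0.0571 without M1, 0.179 without C3 and 0.0857 without array 5. Rostral minus middle was -0.23 ± 0.08 (adjusted p = 0.897 in limma) and middle minus caudal -0.02 ± 0.08, with a 95% interval from -0.21 to 0.16.

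Lhx2 had the same order of regions. Its pool values were -0.14, -0.21 and -0.27 in the rostral pools. They were 0.01, 0.14 and 0.14 in M1, M2 and M3, and 0.02, 0.15 and 0.15 in C1, C2 and C3. The rostral pools again lay apart from the others, and M1 and C1 were the lowest pools of their regions. The mean was -0.20 ± 0.06 over rostral, 0.10 ± 0.07 over middle and 0.11 ± 0.08 over caudal pools (SD, n = 3 each). Rostral minus caudal was -0.31 ± 0.07 (SE; unadjusted p = 0.00205, adjusted p = 0.204 in limma), the 183rd lowest p of 18525. Rostral minus middle was -0.30 ± 0.07 (unadjusted p = 0.00257, adjusted p = 0.597 in limma). Neither passed after adjustment. The exact permutation p of rostral minus caudal was 0.00595. Middle minus caudal was -0.01 ± 0.07, with a 95% interval from -0.17 to 0.14.

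Pax6 feature 2 ran the other way. Its pool values were 0.03, 0.20 and 0.10 in the rostral pools and 0.08, 0.12 and 0.12 in the middle pools, against -0.31, -0.19 and -0.14 in the caudal pools. Here the caudal pools stood apart, below all 6 others, and rostral and middle pools overlapped. The mean was 0.11 ± 0.09 over rostral, 0.10 ± 0.02 over middle and -0.21 ± 0.09 over caudal pools (SD, n = 3 each). Rostral minus caudal was 0.32 ± 0.07 (SE; unadjusted p = 0.00172, adjusted p = 0.193 in limma), the 164th lowest p, and middle minus caudal was also 0.32 ± 0.07 (unadjusted p = 0.00192, adjusted p = 0.421 in limma). Neither passed after adjustment. The exact permutation p of rostral minus caudal was 0.0119, and 0.0589 without R2. Rostral minus middle was 0.01 ± 0.07, with a 95% interval from -0.15 to 0.16.

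**Figure D1:**
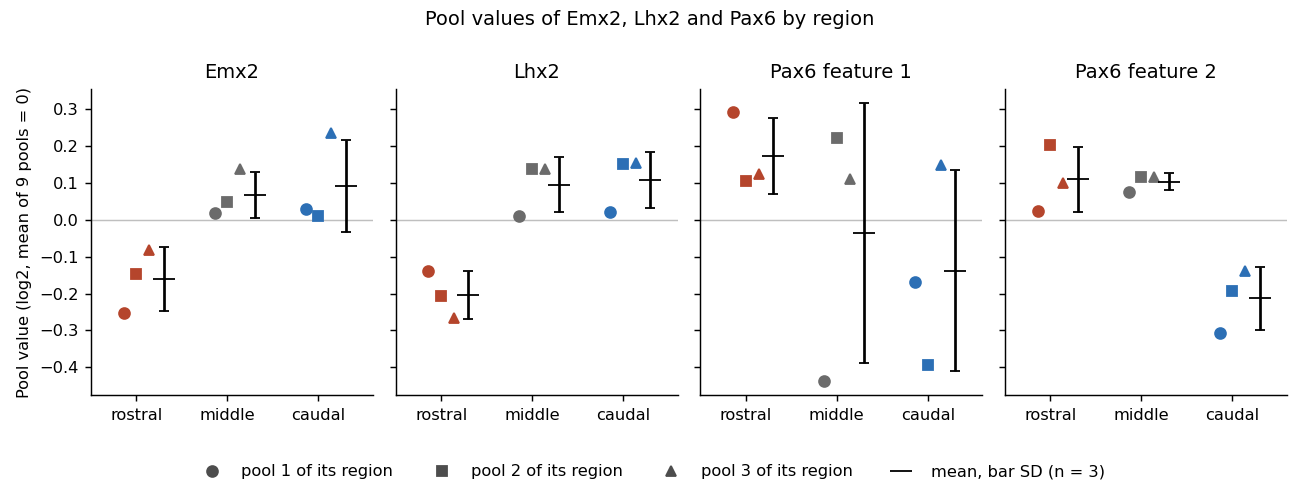
Pool values (log2, vertical axis, mean of the 9 pools at 0) of the 4 features in rostral, middle and caudal pools; symbols give the pool number and black bars the mean and SD of 3 pools. Rostral pools of Emx2 and Lhx2 lie below 0 and the caudal pools of Pax6 feature 2 lie below 0, while M1 of Pax6 feature 1 lies at -0.44.

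Pax6 feature 1 had the same rostral minus caudal difference with a far wider spread. Its pool values were 0.29, 0.11 and 0.12 in the rostral pools, -0.44, 0.22 and 0.11 in the middle pools, and -0.17, -0.40 and 0.15 in the caudal pools. M1 lay far below M2 and M3, C3 lay above R2 and R3, and the regions overlapped. Rostral minus caudal was 0.31 ± 0.20 (SE; adjusted p = 0.835 in limma, exact permutation p = 0.176), and 0.15 without array 12. The SD of arrays around the fit was 0.58 for this feature, against 0.13 for Pax6 feature 2, 0.14 for Lhx2 and 0.19 for Emx2. The difference between the 2 Pax6 features in rostral minus caudal was -0.01 (exact permutation p = 0.965).

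A single array carried most of that spread. Of the 6 arrays that joined middle and caudal pools, 5 gave log2 ratios of middle over caudal of 0.26, 0.32, 0.27, 0.37 and 0.36 for Pax6 feature 1. The sixth, which is array 15 and joined M1 with C3, gave -1.89. On the same array the ratio was 0.305 for Pax6 feature 2, in the range of its other 5 middle over caudal arrays (0.17 to 0.47). Emx2 was at -0.64 on that array, outside its other 5 (-0.24 to 0.24), with its lowest residual of all arrays there (-0.26). Lhx2 was at -0.34, also its lowest (others -0.28 to 0.29), with a residual of -0.05. Array 15 did not stand apart over the whole table: it held the largest residual of 7.11% of features, and single arrays held between 2.62% and 8.74%. With array 15 left out, feature 1 was at 0.16, 0.11 and 0.26 in rostral pools, 0.09, 0.09 and 0.11 in middle pools and -0.17, -0.26 and -0.38 in caudal pools. The caudal pools then lay below all others, as they did for feature 2. Rostral minus caudal became 0.44 ± 0.07 (unadjusted p = 0.00029, adjusted p = 0.115 in limma; exact permutation p = 0.00238), middle minus caudal 0.37 ± 0.07 (adjusted p = 0.327 in limma) and rostral minus middle 0.08 ± 0.07. The SD of arrays around the fit fell to 0.13 without that array, against 0.58 with it. Across the 9 pools the 2 Pax6 features had a Pearson r of 0.42 with all arrays and 0.78 without array 15, as a description over pools that share arrays. Array 15 was singled out after the data were seen, for its value in feature 1. The p-values and the r without it are therefore descriptive and give no independent support for feature 2.

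**Figure D2:**
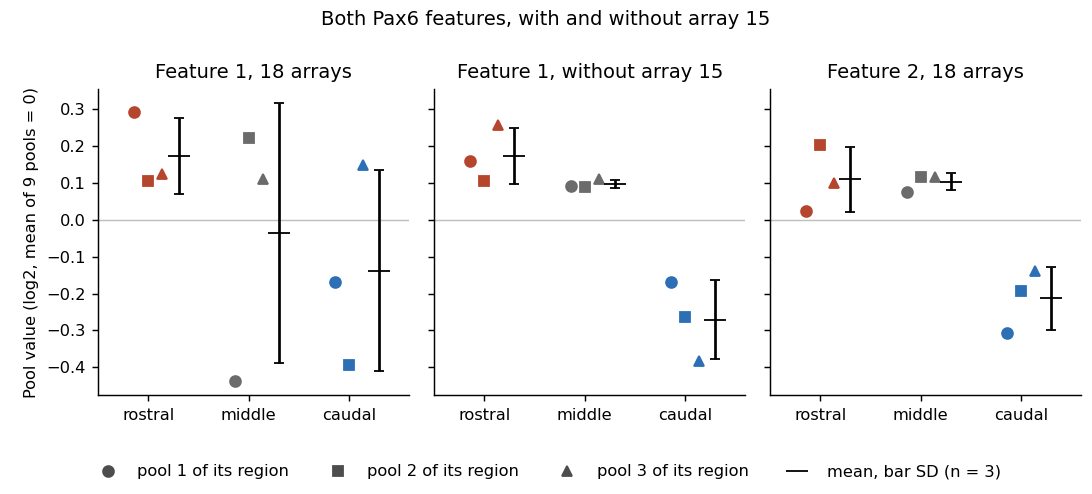
Pool values (log2, vertical axis) of Pax6 feature 1 over all 18 arrays (left) and without array 15 (middle), and of Pax6 feature 2 over all arrays (right); black bars give the mean and SD of 3 pools. Without array 15 the middle pools of feature 1 lie between 0.09 and 0.11 and the caudal pools between -0.38 and -0.17.

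The ratios on single arrays show how far each order held without the fit. For rostral over caudal, Pax6 feature 1 was above 0 on 6 of 6 arrays (0.29 to 0.76) and Pax6 feature 2 on 6 of 6 (0.14 to 0.65). Emx2 was below 0 on 5 of 6 (-0.42 to 0.04) and Lhx2 on 5 of 6 (-0.57 to 0.01). Once the dye term was subtracted, Lhx2 was below 0 on 6 of 6 and Emx2 still on 5 of 6 (-0.43 to 0.09). For rostral over middle, Emx2 was below 0 on 6 of 6 arrays (-0.80 to -0.11) and Lhx2 on 6 of 6 (-0.54 to -0.17). Pax6 feature 2 was above 0 on 6 of 6 arrays of middle over caudal (0.17 to 0.47). Among all features with values on the 6 arrays of a pair, 5.23% were above 0 on all 6 for rostral over caudal, 5.33% were below 0 on all 6 for rostral over middle and 3.56% were above 0 on all 6 for middle over caudal. These shares are for ratios with the dye term left in, and none was taken for 5 of 6 arrays.

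The dye moved Emx2 and Lhx2 as much as some regional differences did. The dye term, the part of the log2 ratio of Cy5 over Cy3 that did not depend on the pools, was -0.17 for Emx2, -0.14 for Lhx2, -0.11 for Pax6 feature 1 and 0.03 for Pax6 feature 2. For middle over caudal, Emx2 averaged -0.36 on the 3 arrays with the middle pool in Cy5 and 0.14 on the 3 with it in Cy3. Lhx2 averaged -0.22 and 0.14 in the same way. As every pool was in each dye equally often, a constant dye effect cancels in the pool values.

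**Figure D3:**
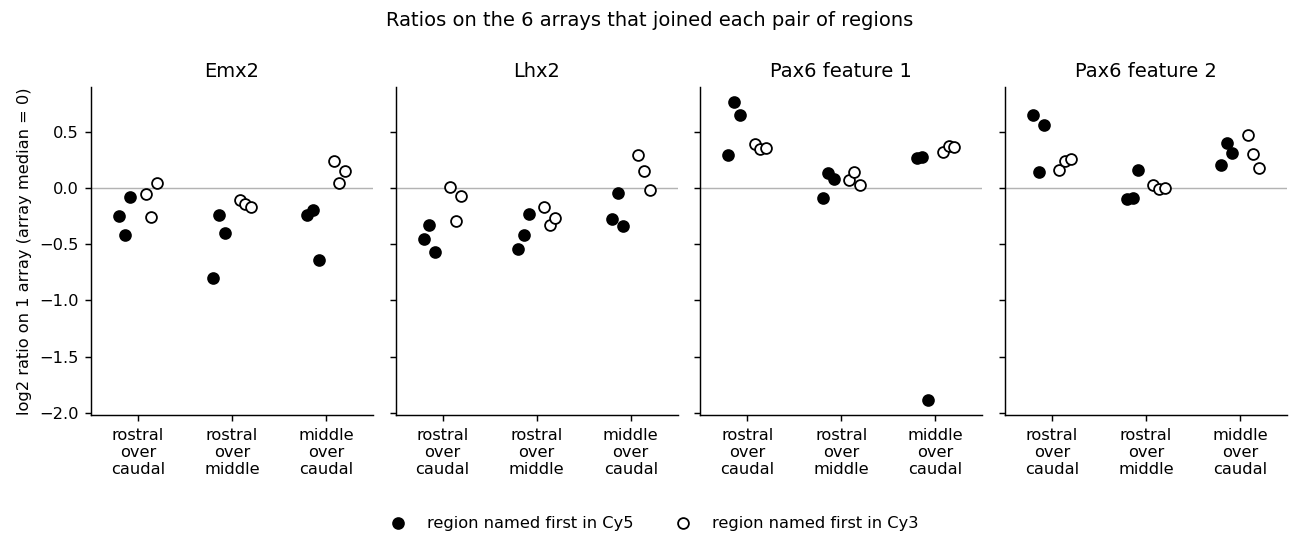
Log2 ratio on single arrays (vertical axis, array median at 0) of the region named first over the region named second, for the 6 arrays of each pair; filled circles have the first region in Cy5, open circles in Cy3. The Pax6 ratios of rostral over caudal all lie above 0, and 1 middle over caudal ratio of Pax6 feature 1 lies at -1.89.

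Set against each other within pools, Pax6 and the other genes diverged from one end of the neocortex to the other. Pax6 feature 2 minus Emx2 was 0.28, 0.35 and 0.18 in the rostral pools, 0.06, 0.07 and -0.02 in the middle pools and -0.34, -0.20 and -0.38 in the caudal pools. The 3 regions did not overlap and stood in the order rostral, middle, caudal. The mean was 0.27 ± 0.08 over rostral, 0.04 ± 0.05 over middle and -0.31 ± 0.09 over caudal pools (SD, n = 3 each). Rostral minus caudal of this difference was 0.58, with an exact permutation p of 0.00119, the smallest the design allows. Pax6 feature 2 minus Lhx2 was 0.16, 0.41 and 0.37 in the rostral pools, 0.07, -0.02 and -0.02 in the middle pools and -0.33, -0.34 and -0.29 in the caudal pools. Its regions did not overlap either, and rostral minus caudal was 0.63 (exact permutation p = 0.00119). Set against Pax6 feature 2 in this way, 4.63% of the 18523 features of other genes gave 3 regions that did not overlap in this order.

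With Pax6 feature 1 in place of feature 2, rostral minus caudal was 0.56 against Emx2 (exact permutation p = 0.0214) and 0.62 against Lhx2 (p = 0.0190 in the same exact test). Both lost an exact permutation p under 0.05 without R1 (0.123 and 0.113), R2 (0.0750 and 0.0821), R3 (0.0714 and 0.0536), C2 (0.154 and 0.150), array 11 (0.0583 and 0.0524) or array 12 (0.0571 and 0.0845). The difference from Emx2 also did without M2 (0.0536) or array 8 (0.0583). Lhx2 minus Emx2 gave -0.06 (exact permutation p = 0.519), with rostral pools at 0.11, -0.06 and -0.19, middle pools at -0.01, 0.09 and 0.00 and caudal pools at -0.01, 0.14 and -0.08. In all 10 such permutation tests were run, 4 of single features and 6 of differences between features, and their p-values are not adjusted. Those of Pax6 minus Lhx2, Lhx2 minus Emx2 and the 2 Pax6 features were added after the data were seen. Centring cancels in a difference between 2 features of the same arrays, so these values do not depend on it.

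**Figure D4:**
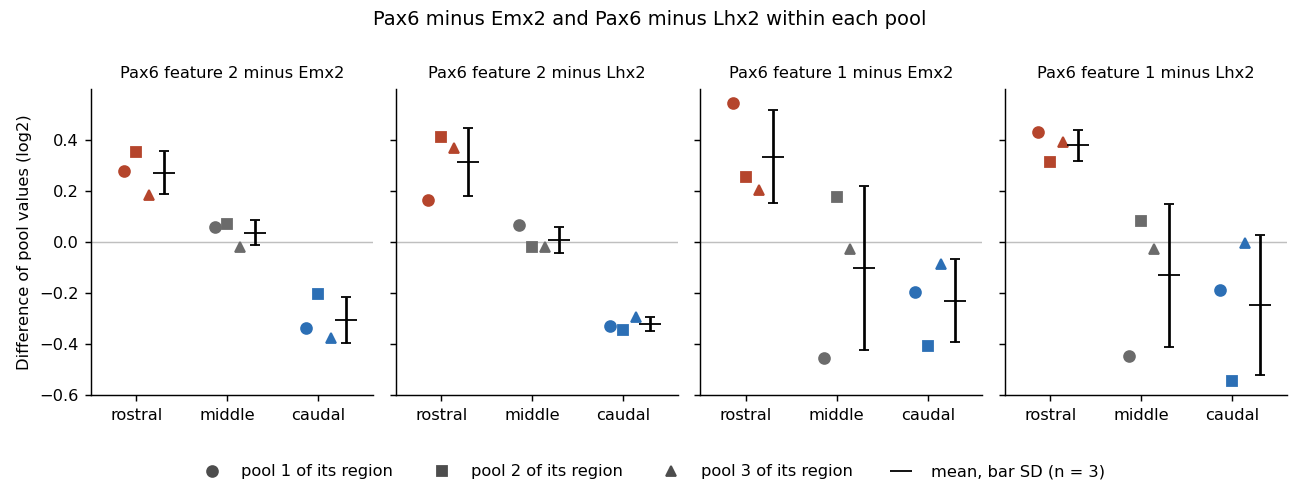
Difference between the pool values of a Pax6 feature and of Emx2 or Lhx2 (log2, vertical axis) in rostral, middle and caudal pools; symbols give the pool number and black bars the mean and SD of 3 pools. With Pax6 feature 2 (left pair) the rostral pools lie between 0.16 and 0.41 and the caudal pools between -0.38 and -0.20.

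The place of the middle region between the ends depended on the scaling. With centred arrays the middle pools lay close to the caudal pools for Emx2 and Lhx2 and close to the rostral pools for Pax6 feature 2. The middle minus the mean of both ends was 0.10 ± 0.07 (SE) for Emx2, 0.14 ± 0.06 for Lhx2, 0.16 ± 0.06 for Pax6 feature 2 and -0.05 ± 0.17 for Pax6 feature 1 (adjusted p = 0.99995 in limma for each). This contrast was added after the data were seen, and 4.06% of all features had an unadjusted p under 0.05 in it. Without centring, the median over all features was -0.07 in rostral minus caudal, 0.10 in rostral minus middle and -0.17 in middle minus caudal. Rostral minus middle and middle minus caudal were then -0.13 and -0.20 for Emx2, -0.20 and -0.19 for Lhx2, and 0.11 and 0.14 for Pax6 feature 2.

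The members lay in the outer part of the distribution over all features but not at its ends. Rostral minus caudal was lower than in Lhx2 for 8.21% of the 18525 features and lower than in Emx2 for 10.6%. It was higher than in Pax6 feature 2 for 7.7% and higher than in Pax6 feature 1 for 8.26%. The median over all features was 0.00, and 50.4% lay above 0. Pools of the 2 ends did not overlap for 3 of the 4 member features, against 12.1% of all features. Rostral pools lay wholly below middle pools for Emx2 and Lhx2, as they did for 7.66% of all features. Middle pools lay wholly above caudal pools for Pax6 feature 2, as they did for 6.18%. In the F test of any difference among the 3 regions, 2 features (0.0108%) passed and 6.71% had an unadjusted p under 0.05. The adjusted p in limma was 0.642 for Emx2, 0.323 for Lhx2, 0.99 for Pax6 feature 1 and 0.295 for Pax6 feature 2.

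**Figure D5:**
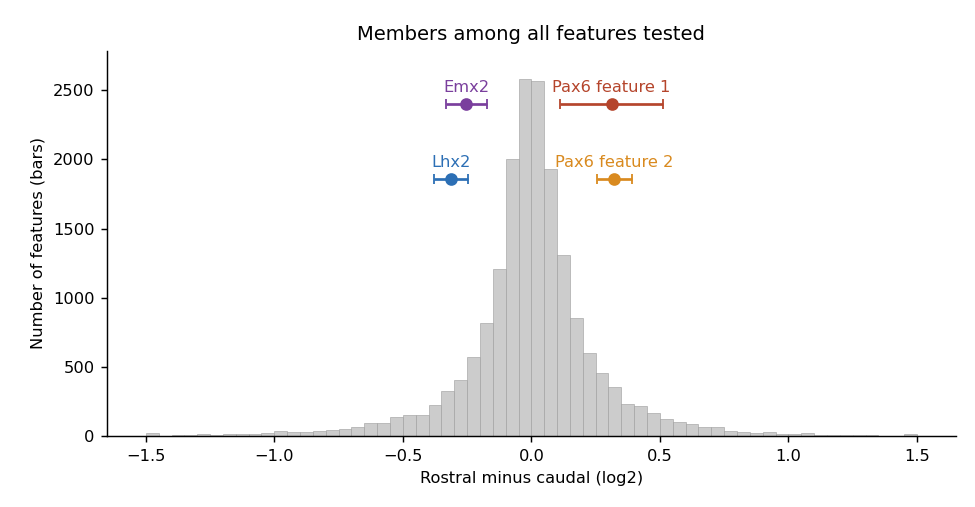
Number of features (vertical axis, bars) by their rostral minus caudal log2 difference (horizontal axis; the end bars also hold all larger differences), with the 4 member features as points whose bars give the standard error and whose height has no meaning. Emx2 and Lhx2 lie left of 0 and both Pax6 features right of it, with between 7.7% and 10.6% of features farther out on the same side.

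Other factors of the dorsal telencephalon, the tissue in which these genes act, lay on both sides of 0. Of 20 listed genes 12 were measured, with 4 above 0 and 8 below 0 in rostral minus caudal and a median of -0.06. Nr2f1 fell, with the limits given above, and 0 of the others passed. Fezf2, a factor of deep-layer neurons, was at -0.28 ± 0.05 (SE; adjusted p = 0.167 in limma). Emx1, the close relative of Emx2, was at -0.10 ± 0.06 (adjusted p = 0.815 in limma). It was measured on 18 arrays and marks the dorsal telencephalon. A ratio cannot show that a marker is present.

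Genes reported as targets of Pax6 lay on both sides of 0. Of 6 measured, 3 lay above and 3 below 0 in rostral minus caudal, with a median of -0.01, and 0 passed. Eomes, a factor of intermediate progenitors, was at -0.08 ± 0.09 (SE), Neurog2, a proneural factor, at 0.36 ± 0.65, Dbx1 at 0.52 ± 0.57 and Cdh4, a cadherin, at -0.07 ± 0.05. The errors of Neurog2 and Dbx1 are too wide to give a direction. Fabp7, also in this list, was at -0.03 ± 0.07. It was at 0.32 in rostral minus middle and -0.34 in middle minus caudal (unadjusted p = 0.00226 and 0.00146 in limma). No feature of the whole table passed after adjustment in either. Pax6 feature 2 was at 0.01 and 0.32 in the same contrasts. Of 14 measured LIM-homeobox genes and cofactors, the family and partners of Lhx2, 4 lay above and 10 below 0 with a median of -0.04, and 0 passed. Lmo4, a LIM-only protein, was at -0.41 ± 0.08 (adjusted p = 0.193 in limma), Ssbp2 at -0.10 ± 0.06 and Lmo2 at -0.15 ± 0.09. Ldb1, the cofactor that LIM-homeodomain proteins bind, was at 0.01 ± 0.05. Of 9 relatives of Pax6 and Emx2, namely Emx1 and other Pax genes, 4 lay above and 5 below 0, and 0 passed.

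Markers of neighbouring tissues and of the cell types that express these genes were followed in the same way. Of 10 radial glia genes, which mark the progenitors that express the 3 factors, 7 lay above and 3 below 0, with a median of 0.01. Vim, an intermediate filament gene, fell by 0.51 (log2 difference -0.51 ± 0.05 SE, adjusted p = 0.0389 in limma). This call was lost at least in the settings named above in which 0 features passed. In rostral minus caudal only 1 feature passed without R2, and 2 without R3 or without array 13. Slc1a3, a glutamate transporter, was at 0.32 ± 0.05 (adjusted p = 0.156 in limma), and its other features were at 0.32 ± 0.29 and 0.22 ± 0.06. The median of this list lay between -0.03 and 0.05 in rostral pools, between 0.00 and 0.04 in middle pools and between -0.09 and 0.04 in caudal pools. Of 9 neuronal genes, 5 lay above and 4 below 0 with a median of 0.03, and 0 passed. Bcl11b was at 0.21 ± 0.05, with a second feature at 0.46 ± 0.08, Neurod6 at 0.19 ± 0.06 and Gap43 at -0.15 ± 0.09. Of 6 genes of intermediate progenitors, 3 lay on either side, and 0 passed. Insm1 was at 0.29 ± 0.07, Gadd45g at -0.24 ± 0.07 and Btg2 at 0.23 ± 0.07.

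Genes of the cortical hem, the source of WNT and BMP signals beside which Emx2 is high, had 3 of 13 measured members above and 10 below 0, with a median of -0.06, and 0 passed. Id3 was at -0.26 ± 0.07 (SE), Rspo3 at -0.14 ± 0.08 and Wnt5a at -0.09 ± 0.07. Wnt8b, of the same list, was at 0.08 ± 0.07. It was at 0.43 in rostral minus middle and -0.35 in middle minus caudal (unadjusted p = 0.000344 and 0.00126 in limma). No feature of the whole table passed after adjustment in either. Over these steps the list median was 0.03 and -0.11, against -0.23 and -0.02 for Emx2. Of 4 measured genes of the antihem, the lateral signalling centre beside which Pax6 is high, 3 lay above 0 and 0 passed. Tgfa was at -0.08 ± 0.08, Dbx1 at 0.52 ± 0.57 and Nrg3 at 0.07 ± 0.22. All 4 differences were smaller than their SE, so the count gives no direction. Of 12 genes of the subpallium, 7 lay above and 5 below 0 with a median of 0.02, and 0 passed. Gsx2 was at -0.53 ± 0.12 (adjusted p = 0.225 in limma), Dlx5 at -0.23 ± 0.14 and Ebf1 at 0.24 ± 0.21. Reln, the secreted protein of Cajal-Retzius cells, was at -0.36 ± 0.08 (adjusted p = 0.227 in limma), but a second Reln feature was at -0.04 ± 0.10. It stands in a list with 3 of 6 genes on either side. Diencephalic genes had 4 of 5 above 0, choroid plexus genes 5 of 5 above 0 and endothelial genes 1 of 6 above 0, and 0 passed. A second feature of Kl, a choroid plexus gene, was at -0.01 ± 0.18, against 0.15 ± 0.08 for the one counted. Some errors were wide, as for Ttr of the choroid plexus (0.13 ± 0.88) and Gbx2 of the diencephalon (0.56 ± 0.58).

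In rostral minus caudal, meningeal genes lay on the side of Emx2 and Lhx2. All 7 measured lay below 0, with a median of -0.27, and 0 passed. The steps differed: the list median was -0.04 in rostral minus middle and -0.11 in middle minus caudal. These differences were -0.23 and -0.02 for Emx2 and -0.30 and -0.01 for Lhx2. In rostral minus caudal Ptgds was at -0.66 ± 0.13 (SE), Dcn at -0.39 ± 0.09 and Cxcl12 at -0.27 ± 0.07 (adjusted p = 0.188, 0.233 and 0.310 in limma). Col1a2 and Col3a1 were at -0.04 ± 0.07 and -0.01 ± 0.05. The median of the list lay between -0.13 and 0.00 in rostral pools, between -0.09 and 0.00 in middle pools and between 0.01 and 0.19 in caudal pools. Red blood cell genes had 1 of 5 above 0 and a median of -0.32, and 0 passed. Alas2 was at -0.32 ± 0.07, Hbb-y at -0.33 ± 0.11 and Hbb-bh1 at -0.34 ± 0.17 (adjusted p = 0.193, 0.480 and 0.727 in limma). Hba-a1 lay the other way at 0.07 ± 0.08, and Hba-x was at -0.13 ± 0.16, with a second feature at -0.17 ± 0.15. The median of the red blood cell list lay between -0.39 and -0.01 in rostral pools, between 0.03 and 0.15 in middle pools and between -0.15 and 0.20 in caudal pools. The part of such tissue in the values of Emx2, Lhx2 and Pax6 was not tested.

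Over the 9 pools, Lhx2 and Emx2 were alike, with a Pearson r of 0.78. Among the 10383 features with 1 gene symbol and a value on all arrays, Lhx2 ranked 297th by likeness to Emx2, and Emx2 ranked 452nd by likeness to Lhx2. The genes most like Emx2 were Npm1 (r = 0.98), a nucleolar chaperone, Coro1a (r = 0.96), an actin-binding protein, Rcl1 (r = 0.95), Sstr5 (r = 0.95), a somatostatin receptor, and Fgfr1op2 (r = 0.95). Those most like Lhx2 were Nnat (r = 0.99), an imprinted gene of developing neurons, Cyc1 (r = 0.98), a subunit of the respiratory chain, Rtraf (r = 0.98), and the ribosomal protein genes Rpl13 (r = 0.97) and Rps3a1 (r = 0.97). Those most like Pax6 feature 2 were Stk39 (r = 0.98), a kinase, Mpped2 (r = 0.96), Cenps (r = 0.96), a centromere protein, Fam32a (r = 0.95) and Brd2 (r = 0.95), a bromodomain protein. Their rostral minus caudal differences were 0.38 ± 0.06 (SE) for Stk39 and 0.64 ± 0.11 for Mpped2. Pax6 feature 1 ranked 1924th of 10382 by likeness to feature 2. Pax6 feature 2 had an r of -0.33 with Emx2 and of -0.42 with Lhx2. These values describe 9 pools that share arrays, and they were computed from the same values as the regional differences.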

How the data were processed

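The authors deposited 1 log2 ratio per feature and array, and no label or header gives the scanner, background correction, normalization or numerator. Of 21998 probes, 232 were Gapdh control spots and were left out. The values of 1477 spots equal log2 of a capped ratio (16.61 on the log2 scale) and were set to missing. Each array held between 18085 and 20693 of the remaining values, and the number of arrays limits the precision. Arrays, whose medians lay between -0.09 and 0.61, were centred on their median. A feature needed values on 12 arrays and on 2 arrays of each pool. Pool values were estimated by least squares with a dye term, and limma 3.58.1 (R 4.3.3) took the 9 values per feature, with region as the only factor (6 residual and 1.26 prior degrees of freedom, two-sided). Pools that shared arrays have errors in common, which the fit does not model. The fit was tested on simulated data. Genes and gene lists were chosen with earlier results of these data known. Named were all member features, per list up to 3 genes with the lowest rostral minus caudal p and any past an adjusted p of 0.05, 6 close relations of the members, and the 5 genes most alike to each member. Wnt8b and Fabp7 were added after the data were seen, for their differences from the middle region. Of several features of a gene, the most often measured one was used (on ties, that with the lowest residual SD). Promoters are from RefSeq (GRCm38.p6, 5 windows matched). Alternatives were centring, capped ratios, filters, a Gapdh covariate, scaling, the dye term, arrays as replicates, blocks, left-out pools and arrays, and the turned ratio.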

Additional observations from a re-analysis of the deposited data

Results flagged for a closer look

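1 of the 12 sets of 6 arrays examined, which were the 4 member features in each of the 3 pairs of regions, held a value far from the rest. For Pax6 feature 1 in middle over caudal, array 15 (M1 over C3) stood at -1.89 and the nearest of the other 5 arrays at 0.26. The gap was 0.951 of the whole range, above Dixon's critical value for 6 values. Chance alone marks about 1 in 20 such sets.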

How the results depend on the processing

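Emx2 and Lhx2 stayed below 0 and both Pax6 features above 0 in rostral minus caudal in every alternative that kept Cy5 over Cy3, and in all of them except arrays as replicates the adjusted p of each stayed above 0.05. Leaving out a pool or an array moved rostral minus caudal between -0.31 and -0.20 for Emx2, -0.36 and -0.28 for Lhx2, 0.15 and 0.44 for Pax6 feature 1 and 0.27 and 0.37 for Pax6 feature 2. Rostral minus middle lay between -0.26 and -0.16, -0.34 and -0.26, 0.07 and 0.33, and -0.038 and 0.042 for the same features in that order, and middle minus caudal between -0.065 and 0.061, -0.057 and 0.036, -0.039 and 0.37, and 0.27 and 0.35. The lowest Pax6 feature 1 value in rostral minus caudal came without array 12 and the highest without array 15. Within pools, Pax6 feature 2 minus Emx2 ranged from 0.54 to 0.64 (exact permutation p between 0.00119 and 0.00357) and minus Lhx2 from 0.57 to 0.73 (exact permutation p between 0.00119 and 0.00714). With Pax6 feature 1 these were 0.46 to 0.67 and 0.49 to 0.75, with exact permutation p between 0.00119 and 0.154 and between 0.00119 and 0.150. Lhx2 minus Emx2 lay between -0.14 and 0.020, and Pax6 feature 1 minus feature 2 between -0.18 and 0.13. The exact permutation p of Emx2 alone rose above 0.05 without R1 (0.0554), M1 (0.0571), C3 (0.179) or array 5 (0.0857), and that of Pax6 feature 2 without R2 (0.0589). That of Pax6 feature 1 dropped below 0.05 without M1 (0.00714), C3 (0.00714) or array 15 (0.00238), against 0.176 with all.

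The count of features past the adjusted threshold in rostral minus caudal lay between 0 and 22 with a pool or array left out, being 22 without array 15. It was 0 without centring, with the Gapdh covariate and with either division of joined pools as a block, 46 over features with values on all 18 arrays and 7 with no minimum number of arrays. For the F test the count lay between 0 and 5 with a pool or array left out. It was 20 over features on all 18 arrays and 0 without centring, with capped ratios kept, with no minimum, with the Gapdh covariate, with arrays scaled to the same spread and with either block. Arrays taken as replicates, which counts each pool 4 times, gave 1325, 703, 501 and 1491 features for rostral minus caudal, rostral minus middle, middle minus caudal and the F test. The limma adjusted p were then 0.0318 for Emx2 (-0.25), 0.000581 for Pax6 feature 2 (0.32) and for Lhx2 (-0.31) in rostral minus caudal, 0.00208 for Lhx2 (-0.30) in rostral minus middle and 0.00164 for Pax6 feature 2 (0.32) in middle minus caudal. With other settings that kept Cy5 over Cy3 the changes of sign were these: Pax6 feature 2 in rostral minus middle was -0.0033 with scaled arrays, Pax6 feature 1 in middle minus caudal was -0.071 without centring, and Pax6 feature 1 minus feature 2 was 0.0071 with scaled arrays. Where no cause is given, the cause was not tested.

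With the pool number as a replicate block, 0 features passed in rostral minus caudal and 0 in the F test. Same-numbered pools did not deviate together: the correlation of their deviations across features lay between -0.43 and -0.06 over the 9 pairs, against -0.29 to 0.47 over the 18 pairs of other numbers. Pools of different numbers could share an array and its error and same-numbered pools never did, so these values do not show whether pools share embryos.

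Read as Cy3 over Cy5, every sign turns. Rostral minus caudal would be 0.25 for Emx2, 0.31 for Lhx2, -0.31 for Pax6 feature 1 and -0.32 for Pax6 feature 2, rostral minus middle 0.23, 0.30, -0.21 and -0.0062, and middle minus caudal 0.025, 0.013, -0.10 and -0.32. The differences between features would be -0.56 and -0.58 for Pax6 features 1 and 2 minus Emx2, -0.62 and -0.63 minus Lhx2, 0.059 for Lhx2 minus Emx2 and 0.011 between the Pax6 features.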
